A study of Mus musculus with 9 samples.

Results

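The genes described here are 56 regulators and effectors of the cell division cycle, chosen by name: 11 cyclins, kinases and E2F or Rb factors of the G1 phase, 6 inhibitors of cyclin-dependent kinases (CDKs), 14 genes of DNA synthesis in S phase and 25 genes of G2 and mitosis. Of the 56, 55 had a row under their symbol among the 41761 genes of the deposited table, and 54 passed a filter of at least 1 FPKM (fragments per kilobase of gene, relative to the depth of the library) in at least 3 libraries. Cdk6 did not pass it, and Tyms had no row under its symbol. The libraries came from primary stromal cells of mouse inguinal white fat, wild type C57, labelled as mature white adipocytes and taken through white adipocyte differentiation in culture. Sodium alginate, the salt of a brown seaweed polysaccharide, was present at 0, 50 or 100 µM, with 3 libraries at each dose. All groups, 0 µM included, received insulin (1 µg/ml), dexamethasone (1 µM) and IBMX (0.5 mM). The treatment protocol adds rosiglitazone (1 µM), which the design text does not list. The titles name day 6, whereas RNA was collected on day 7 by the protocol. Titles of the 100 µM libraries read 50 µM, whereas their treatment label and library names read 100 µM, and these were used. Nothing in the labels ties the libraries of a dose to separate cultures or animals, so the spread behind each p-value may be a technical one.

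Cells enter the division cycle when D-type cyclins, with Cdk4 and Cdk6, phosphorylate the retinoblastoma protein Rb1 and so release E2F factors, which switch on the genes of DNA replication. Genes of G2 and mitosis are switched on later by factors that include Foxm1 and the Mybl2 complex, and CDK inhibitors of the Cdkn1 and Cdkn2 families hold the kinases in check. Fat cell precursors in culture can divide again soon after the inducing cocktail, before they leave the cycle and fill with lipid.

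Rebuilt from the FPKM values and gene lengths, the libraries held 14019672 to 17094467 reads assigned to genes. Among all 12635 genes tested with limma on log2(FPKM + 1), 2314 were higher and 1965 lower at 100 µM than at 0 µM. That split was 1620 higher and 2636 lower once every library was brought to the same sum of levels (TPM), and 1731 higher and 2658 lower once the scaling factor in the deposited values was removed. Markers of the labelled cell type were present, since all 20 mature adipocyte markers passed the filter. The 10 markers of lymphocytes and red cells with a row summed to 0.267 to 0.690 FPKM in a library. Among them Cd3g, Nkg7 and Hba-a1 were at 0 FPKM in every library. Macrophage and endothelial markers were present, with sums of 281.4 to 312.3 and 222.2 to 245.1 FPKM at 0 µM.

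Sequences are given for the S phase and mitotic members that fell with the smallest p-values at 100 µM among those with a promoter entry, and for E2f2, a G1 member that rose, to show the short motifs that were counted in all promoters. Each window runs from 250 bases before to 50 bases after a start in RefSeq, build GRCm38.p6, and reads 5′ to 3′ on the strand of the gene. Capitals mark the E2F letters TTTCCCGC, TTTGGCGC, TTTCGCGC or TTTGCCGC, the CHR (cell cycle genes homology region) letters TTTGAA, and the NF-Y box CCAAT, on either strand. Mcm6 encodes a subunit of the replicative helicase and its window is chr1:128359656-128359955, minus strand. Pola1, the catalytic subunit of the polymerase that lays down primers, has chrX:93632106-93632405, minus strand. Top2a, the topoisomerase that untangles sister chromatids, has chr11:99024140-99024439, minus strand. Cenpe, a kinetochore motor, has chr3:135212313-135212612, plus strand. E2f2, an activating E2F factor, has chr4:136172024-136172323, plus strand, for the first of 2 entries.
Mcm6: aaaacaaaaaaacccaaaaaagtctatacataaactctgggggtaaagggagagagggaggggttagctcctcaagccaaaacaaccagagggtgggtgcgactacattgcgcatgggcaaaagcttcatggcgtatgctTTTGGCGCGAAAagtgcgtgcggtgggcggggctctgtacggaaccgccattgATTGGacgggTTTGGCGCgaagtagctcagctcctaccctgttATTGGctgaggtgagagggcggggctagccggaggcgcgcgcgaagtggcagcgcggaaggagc
Pola1: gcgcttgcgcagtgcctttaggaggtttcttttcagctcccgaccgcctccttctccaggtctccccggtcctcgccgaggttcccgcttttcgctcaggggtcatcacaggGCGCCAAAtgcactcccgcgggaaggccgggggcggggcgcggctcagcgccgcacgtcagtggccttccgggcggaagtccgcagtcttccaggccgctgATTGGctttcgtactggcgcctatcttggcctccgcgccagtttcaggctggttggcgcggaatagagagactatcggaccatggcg
Top2a: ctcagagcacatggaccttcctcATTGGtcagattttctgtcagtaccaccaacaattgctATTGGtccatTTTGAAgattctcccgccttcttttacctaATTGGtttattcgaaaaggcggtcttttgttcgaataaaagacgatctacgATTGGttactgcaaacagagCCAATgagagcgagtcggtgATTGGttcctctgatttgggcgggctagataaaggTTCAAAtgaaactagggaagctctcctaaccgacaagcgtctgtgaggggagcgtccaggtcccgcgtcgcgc
Cenpe: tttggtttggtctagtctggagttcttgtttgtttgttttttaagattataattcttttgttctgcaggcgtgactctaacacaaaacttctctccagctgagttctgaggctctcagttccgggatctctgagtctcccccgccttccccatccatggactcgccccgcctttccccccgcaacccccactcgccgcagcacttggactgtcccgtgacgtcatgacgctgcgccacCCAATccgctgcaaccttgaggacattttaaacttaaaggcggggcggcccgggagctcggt
E2f2: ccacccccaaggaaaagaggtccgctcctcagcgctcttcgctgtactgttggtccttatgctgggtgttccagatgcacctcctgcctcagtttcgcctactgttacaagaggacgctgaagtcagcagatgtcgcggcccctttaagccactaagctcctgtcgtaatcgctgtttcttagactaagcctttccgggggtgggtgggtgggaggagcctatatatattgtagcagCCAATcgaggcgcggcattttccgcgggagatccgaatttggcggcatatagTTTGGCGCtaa

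Positions count from 0 at the start base. The Mcm6 window held E2F letters at -110 to -103, at -106 to -99 on the other strand, overlapping the first, and at -47 to -40. In Pola1 an E2F match lay at -138 to -131, and in Top2a the CHR matches lay at -179 to -174 and at -23 to -18 among 6 CCAAT boxes. Cenpe held no CHR letters and 1 CCAAT box at -12 to -8. In the first E2f2 window an E2F match lay after the start, at 39 to 46. The second E2f2 entry, whose sequence is not given, held no E2F letters, CHR letters at -31 to -26 and 3 CCAAT boxes.

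RefSeq entries matched 43 of the 56 members and gave 50 promoters. E2F letters occurred in 7 of 13 S phase promoters (53.8%) and in 1 of 20 promoters of G2 and mitosis genes (5.0%), against 2.26% of all 32851 promoters in the table. CHR letters showed the opposite order, in 1 of 13 S phase promoters (7.69%) and 14 of 20 promoters of G2 and mitosis genes (70.0%), against 17.9% of all promoters. The CCAAT box was in 10 of 13 S phase promoters and 17 of 20 mitotic ones, against 37.4% of all. A match describes letters only. Tpx2, Cdkn1c, Gins2, Ccne2, Kif20a, Foxm1, Rb1, Pbk, Ccnd1, Aurkb, Mcm4, Ccna2 and Ccnd2 had no entry.

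**Figure D1:**
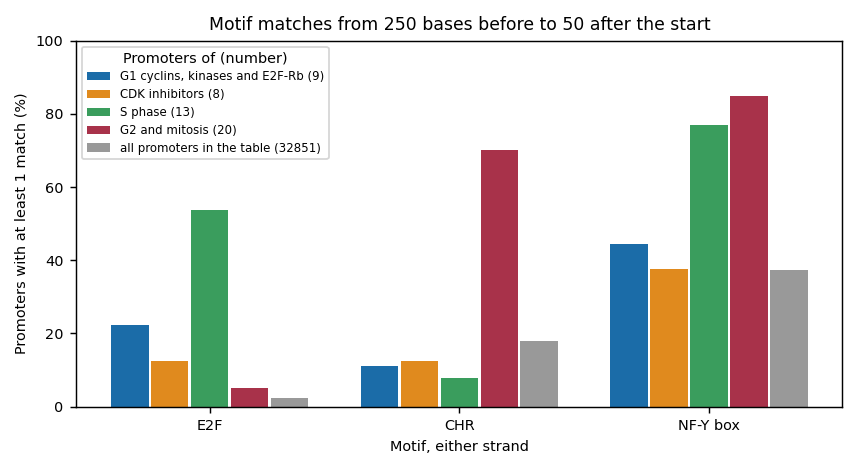
Share of promoters (percent, vertical axis) holding at least 1 match on either strand to the E2F, CHR and NF-Y (CCAAT) letters, for the 4 classes of members and for all 32851 promoters in the table. E2F letters peaked in the S phase class at 53.8% and CHR letters in the G2 and mitosis class at 70.0%.

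At 100 µM the cell cycle genes were mostly lower than at 0 µM, and the mitotic genes fell the furthest. Of the 54 members tested, 31 fell and 4 rose (limma, Benjamini-Hochberg adjusted p under 0.05 over all 12635 genes), beside a background of 15.6% of all tested genes lower and 18.3% higher, or 33.9% in either direction. The median log2 fold change of the members was -0.30, against 0.01 for all tested genes. By class, 21 of 25 genes of G2 and mitosis fell (median -0.43), as did 6 of 13 S phase genes (median -0.24), and none of either class rose. All 100 µM libraries lay below all 0 µM libraries in 34 members, against 22.9% of all tested genes, and above them in 6, against 25% of all. In G1 3 of 10 tested genes rose and 2 fell, and among the CDK inhibitors 1 of 6 rose and 2 fell. Fold changes are on the log2(FPKM + 1) scale, which understates the change of low genes. In bulk RNA, fewer dividing cells and less of each transcript per cell cannot be told apart.

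**Figure D2:**
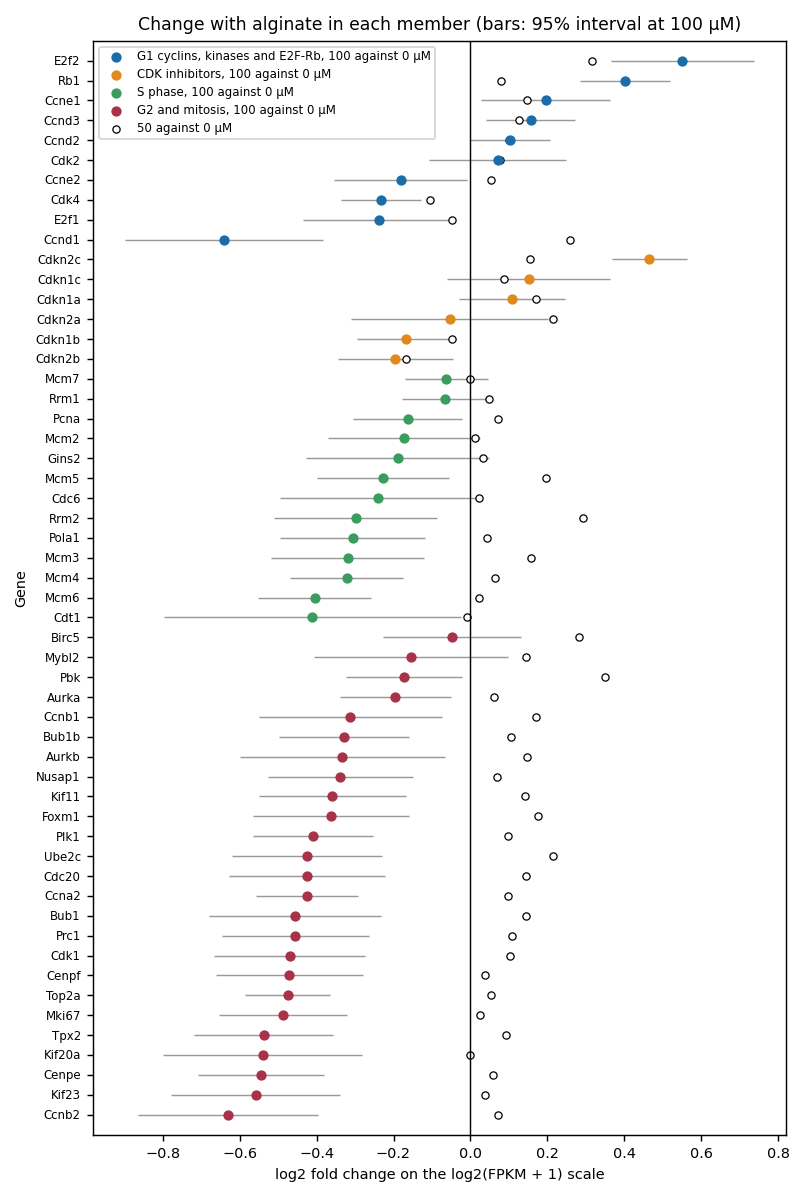
Log2 fold change on the log2(FPKM + 1) scale (horizontal axis) of each of the 54 tested members: filled points give 100 µM against 0 µM with 95% intervals, and open points 50 µM against 0 µM, with the same 0 µM libraries in both. All 25 genes of G2 and mitosis lie left of 0 at 100 µM, between -0.63 and -0.05, whereas the G1 genes lie on both sides, from -0.64 for Ccnd1 to 0.55 for E2f2.

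Among the G1 genes, the D-type cyclins, which partner Cdk4 and Cdk6, did not move together. Ccnd1 had 13.7, 17.0 and 16.8 FPKM at 0 µM, 15.9, 20.3 and 21.3 at 50 µM and 10.4, 9.78 and 9.11 at 100 µM. Every 100 µM library lay below every other library, and Ccnd1 fell by 0.64 at 100 µM against 0 µM (limma log2 fold change, SE 0.11, adjusted p = 0.00241). Ccnd3 averaged 8.75 ± 0.588 FPKM at 0 µM, 9.63 ± 0.117 at 50 µM and 9.86 ± 0.239 at 100 µM (SD, n = 3 each), a rise of 0.16 (limma adjusted p = 0.0429) that missed the threshold under 15 of 18 alternative settings (highest adjusted p = 0.238, with TPM). Ccnd2, the most abundant of these cyclins, averaged 70.1 ± 2.14, 75.3 ± 3.96 and 75.3 ± 0.887 FPKM at 0, 50 and 100 µM and did not pass (limma adjusted p = 0.118, 95% interval of the difference at 100 µM from -0.00 to 0.21).

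Cdk4, the kinase of the D-type cyclins, had 50.6, 50.8 and 53.9 FPKM at 0 µM, 47.6, 46.8 and 49.7 at 50 µM and 42.5, 46.0 and 43.3 at 100 µM. Its 100 µM libraries lay below all others, and it fell by 0.23 at 100 µM against 0 µM (limma, SE 0.05, adjusted p = 0.00425). Cdk6, the other such kinase, was listed at 0.175, 0.212 and 0.256 FPKM at 0 µM, 0.434, 0.474 and 0.384 at 50 µM and 0.495, 0.584 and 0.424 at 100 µM, which amounts to 8 to 26 reads a library. Its 50 and 100 µM libraries lay above all 0 µM libraries, and with the filter lowered to 0.1 FPKM its log2 difference at 100 µM against 0 µM was 0.30 (limma adjusted p = 0.0144). Another gene on the same strand overlaps Cdk6 by 379 bases.

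Rb1, the brake on E2F factors, had 9.35, 8.58 and 8.94 FPKM at 0 µM, 10.1, 9.41 and 9.05 at 50 µM and 11.9, 12.3 and 12.2 at 100 µM. All 100 µM libraries lay above the rest, and Rb1 rose by 0.40 at 100 µM against 0 µM (limma, SE 0.05, adjusted p = 0.000386). Rcbtb2 and Lpar6 overlap Rb1 on the opposite strand and rose as well, by 0.31 and 0.22 (limma adjusted p = 0.0115 and 0.038). Whether counting used the strand is not given in the sources used here, so reads of these 3 genes cannot be told apart where they overlap. The same holds for Ccnd1, Ccnd3, Ccne2, Cdk4, Mcm7, Gins2, Ccna2, Kif20a, Prc1 and Nusap1, each of which overlaps a gene on the opposite strand.

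E2f2 had 1.91, 1.85 and 1.45 FPKM at 0 µM, 2.26, 2.47 and 2.44 at 50 µM and 3.03, 2.92 and 3.02 at 100 µM. The 3 doses did not overlap and stood in dose order, and E2f2 rose by 0.55 at 100 µM against 0 µM (limma, SE 0.08, adjusted p = 0.000917). E2f1, the other activating E2F factor listed, averaged 6.00 ± 0.265, 5.80 ± 0.813 and 4.94 ± 0.377 FPKM at 0, 50 and 100 µM, with a difference of -0.24 at 100 µM against 0 µM that missed the threshold (limma adjusted p = 0.064). The E cyclins, which activate Cdk2 at the entry to S phase, also missed it: the difference was 0.20 for Ccne1 (adjusted p = 0.071) and -0.18 for Ccne2 (adjusted p = 0.101), both by limma. For Cdk2 itself the 95% interval ran from -0.11 to 0.25.

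Cdkn2c, which encodes the Cdk4 and Cdk6 inhibitor p18, was the CDK inhibitor that rose. It had 37.4, 36.9 and 39.0 FPKM at 0 µM, 44.1, 40.6 and 41.8 at 50 µM and 52.8, 53.5 and 51.2 at 100 µM. The doses did not overlap, and Cdkn2c rose by 0.47 at 100 µM against 0 µM (limma, SE 0.04, adjusted p = 7.1e-05), to 139% of its 0 µM mean. Cdkn1b, which encodes p27, had 12.5, 12.7 and 13.5 FPKM at 0 µM, 13.1, 12.1 and 12.1 at 50 µM and 12.2, 11.1 and 10.8 at 100 µM. Its 100 µM libraries lay below the 0 µM ones and it fell by 0.17 (limma, SE 0.06, adjusted p = 0.049). Cdkn2b, which encodes p15, had 12.4, 11.4 and 10.4 FPKM at 0 µM, 10.1, 9.47 and 10.5 at 50 µM and 10.2, 9.83 and 9.45 at 100 µM, and fell by 0.20 at 100 µM against 0 µM (limma, SE 0.07, adjusted p = 0.0476). These falls missed the threshold under 11 (Cdkn1b) and 13 (Cdkn2b) of the 18 alternatives, with adjusted p up to 0.156 without library 3 of 0 µM and 0.152 without library 1 of 0 µM.

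Cdkn1a, which encodes the p53 target p21, was the most abundant CDK inhibitor. It had 105, 124 and 121 FPKM at 0 µM, 129, 129 and 136 at 50 µM and 126, 126 and 125 at 100 µM. The 0 µM libraries were the lowest, but the difference of 0.11 at 100 µM against 0 µM did not pass (limma adjusted p = 0.209, 95% interval -0.03 to 0.25). Cdkn1c (p57) and Cdkn2a also missed the threshold, with intervals from -0.06 to 0.36 and from -0.31 to 0.20.

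In S phase, the members that fell were 4 subunits of the Mcm2 to Mcm7 replicative helicase, the primase-polymerase subunit Pola1, and Rrm2, the small subunit of the enzyme that makes deoxynucleotides. Mcm6 had 10.9, 11.6 and 11.7 FPKM at 0 µM, 10.7, 12.4 and 11.8 at 50 µM and 9.01, 8.14 and 8.0 at 100 µM. The 100 µM libraries lay below all others, and Mcm6 fell by 0.41 against 0 µM (limma, SE 0.07, adjusted p = 0.00141). Mcm4 had 14.7, 15.1 and 14.6 FPKM at 0 µM, 14.8, 15.3 and 16.5 at 50 µM and 10.5, 12.5 and 12 at 100 µM, a fall again with no overlap (limma log2 fold change -0.32, SE 0.07, adjusted p = 0.00475).

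Pola1 had 2.48, 2.59 and 2.94 FPKM at 0 µM, 2.53, 3.01 and 2.80 at 50 µM and 1.81, 2.15 and 1.93 at 100 µM, and fell by 0.31 (limma, SE 0.08, adjusted p = 0.0197). Mcm3 had 9.27, 9.64 and 9.26 FPKM at 0 µM, 9.55, 11.2 and 11.1 at 50 µM and 8.13, 7.65 and 6.30 at 100 µM, and fell by 0.32 (limma, SE 0.09, adjusted p = 0.0207). In both genes the 100 µM libraries lay below all others. Rrm2, at 38.4 ± 4.71, 47.3 ± 4.56 and 30.9 ± 1.33 FPKM at 0, 50 and 100 µM, and Mcm5, at 9.12 ± 1.09, 10.6 ± 0.372 and 7.61 ± 0.419 FPKM, fell by 0.30 and 0.23 (limma adjusted p = 0.0358 and 0.0447). Mcm3, Pola1, Rrm2 and Mcm5 missed the threshold under 3, 4, 7 and 11 of the 18 alternatives. The highest adjusted p was 0.0637 for Mcm3 and 0.115 for Rrm2 without library 2 of 0 µM, 0.0744 for Pola1 without library 3 of 0 µM and 0.119 for Mcm5 without library 2 of 100 µM.

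The other S phase members missed the threshold at 100 µM against 0 µM. Pcna, the sliding clamp of the replication fork, had 36.2, 36.5 and 35.3 FPKM at 0 µM, 36.2, 35.5 and 42.4 at 50 µM and 32.3, 31.4 and 32.4 at 100 µM. Its 100 µM libraries lay below all others, with a difference of -0.16 (limma adjusted p = 0.0755). The helicase subunit Mcm7 and the large reductase subunit Rrm1 differed least, by -0.06 (95% interval -0.17 to 0.05) and -0.07 (95% interval -0.18 to 0.05). Cdt1, a licensing factor, spread widely at 0 µM, with 3.06, 5.37 and 5.40 FPKM, and had 2.52, 3.43 and 3.51 FPKM at 100 µM; its difference of -0.41 did not pass (limma adjusted p = 0.0959). The number of S phase genes that fell at 100 µM against 0 µM was 3 rather than 6 on leaving out library 2 or 3 of 0 µM or library 1 or 3 of 100 µM, and 2 with no filter on low values. The row whose description names thymidylate synthase but gives no symbol, not counted among the members, averaged 5.29 ± 0.957, 6.28 ± 0.627 and 4.57 ± 0.0507 FPKM at 0, 50 and 100 µM.

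Genes of G2 and mitosis fell by 0.20 to 0.63 at 100 µM among the 21 that passed. Top2a had 13.6, 13.7 and 14.1 FPKM at 0 µM, 13.9, 15.1 and 14.1 at 50 µM and 9.17, 9.70 and 10.1 at 100 µM. The 100 µM libraries stood apart from both other doses, and Top2a fell by 0.47 against 0 µM (limma, SE 0.05, adjusted p = 0.000119), to 70.0% of its 0 µM mean. Mki67, which encodes the proliferation antigen Ki-67, had 12.6, 12.4 and 12.2 FPKM at 0 µM, 11.98, 14.2 and 11.9 at 50 µM and 8.34, 8.06 and 9.31 at 100 µM. It too was lower in every 100 µM library than in any other, and fell by 0.49 (limma, SE 0.07, adjusted p = 0.000977).

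Cenpe had 4.38, 4.07 and 3.91 FPKM at 0 µM, 4.26, 4.72 and 4.01 at 50 µM and 2.68, 2.35 and 2.49 at 100 µM, and fell by 0.54 (limma, SE 0.07, adjusted p = 0.000461). Ccna2, the cyclin of S phase and G2, had 9.44, 10.4 and 10.5 FPKM at 0 µM, 10.2, 11.0 and 11.5 at 50 µM and 7.02, 7.37 and 7.38 at 100 µM, and fell by 0.43 (limma, SE 0.06, adjusted p = 0.000579). Tpx2, a spindle assembly factor, had 15.4, 15.2 and 16.8 FPKM at 0 µM, 14.6, 18.4 and 17.8 at 50 µM and 10.5, 10.8 and 10.3 at 100 µM, and fell by 0.54 (limma, SE 0.08, adjusted p = 0.000892). In these 3 genes the 0 and 50 µM libraries overlapped and the 100 µM libraries lay below both.

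**Figure D3:**
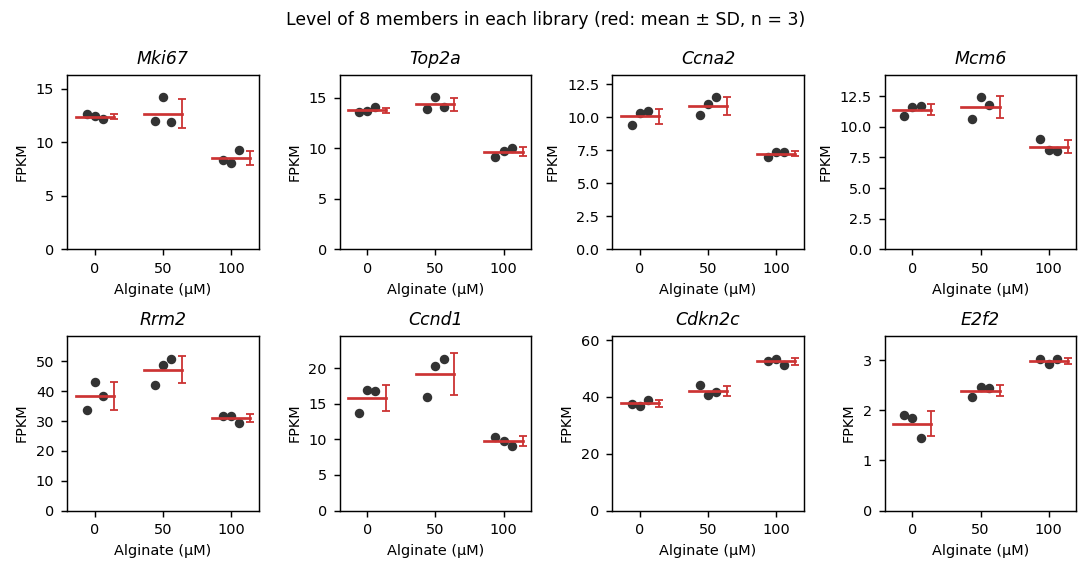
Level in FPKM (vertical axis, from 0) of 8 members in each library by alginate dose in µM, with the mean and SD of 3 libraries in red. Mki67, Top2a, Ccna2, Mcm6, Rrm2 and Ccnd1 have their 3 lowest libraries at 100 µM, whereas Cdkn2c and E2f2 have their 3 highest there.

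Cyclins, kinases, checkpoint proteins and spindle motors were all among the genes that fell. Ccnb2 and Ccnb1, the B-type cyclins, averaged 8.71 ± 0.913 and 5.75 ± 0.324 FPKM at 100 µM, against 14.1 ± 2.01 and 7.40 ± 0.907 FPKM at 0 µM (log2 fold changes -0.63 and -0.31). Their kinase Cdk1 fell by 0.47 and the mitotic kinase Plk1 by 0.41. The spindle checkpoint kinases Bub1 and Bub1b fell by 0.46 and 0.33, the checkpoint target Cdc20 by 0.43, and Ube2c, which works with Cdc20 in the destruction of cyclins, by 0.42. The kinesins Kif23, Kif20a and Kif11 fell by 0.56, 0.54 and 0.36, and Prc1, which bundles the central spindle, by 0.46. Foxm1, a transcription factor of mitotic genes, fell by 0.36, Cenpf by 0.47, Nusap1 by 0.34 and Aurka by 0.20. In this paragraph the largest limma adjusted p was 0.0475, for Ccnb1. Ccnb1 and Aurka missed the threshold under 10 and 12 of the 18 alternatives, with adjusted p up to 0.153 and 0.141 without library 2 of 0 µM, and Nusap1 under 1, without library 3 of 0 µM (adjusted p = 0.0504).

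The 4 mitotic genes that did not pass at 100 µM against 0 µM were Aurkb, Pbk, Mybl2 and Birc5. Aurkb, a kinase of the chromosomal passenger complex, averaged 3.78 ± 0.32 FPKM at 100 µM and 5.06 ± 0.92 FPKM at 0 µM (SD, n = 3 each), with a log2 difference of -0.33 (limma adjusted p = 0.0572). Birc5, its partner survivin, had 5.25, 5.54 and 5.14 FPKM at 100 µM, against 5.37, 5.79 and 5.41 FPKM at 0 µM, and the 95% interval of its difference ran from -0.23 to 0.13. The mitotic kinase Pbk and the transcription factor Mybl2 differed by -0.17 and -0.15 (limma adjusted p = 0.0743 and 0.328).

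**Figure D4:**
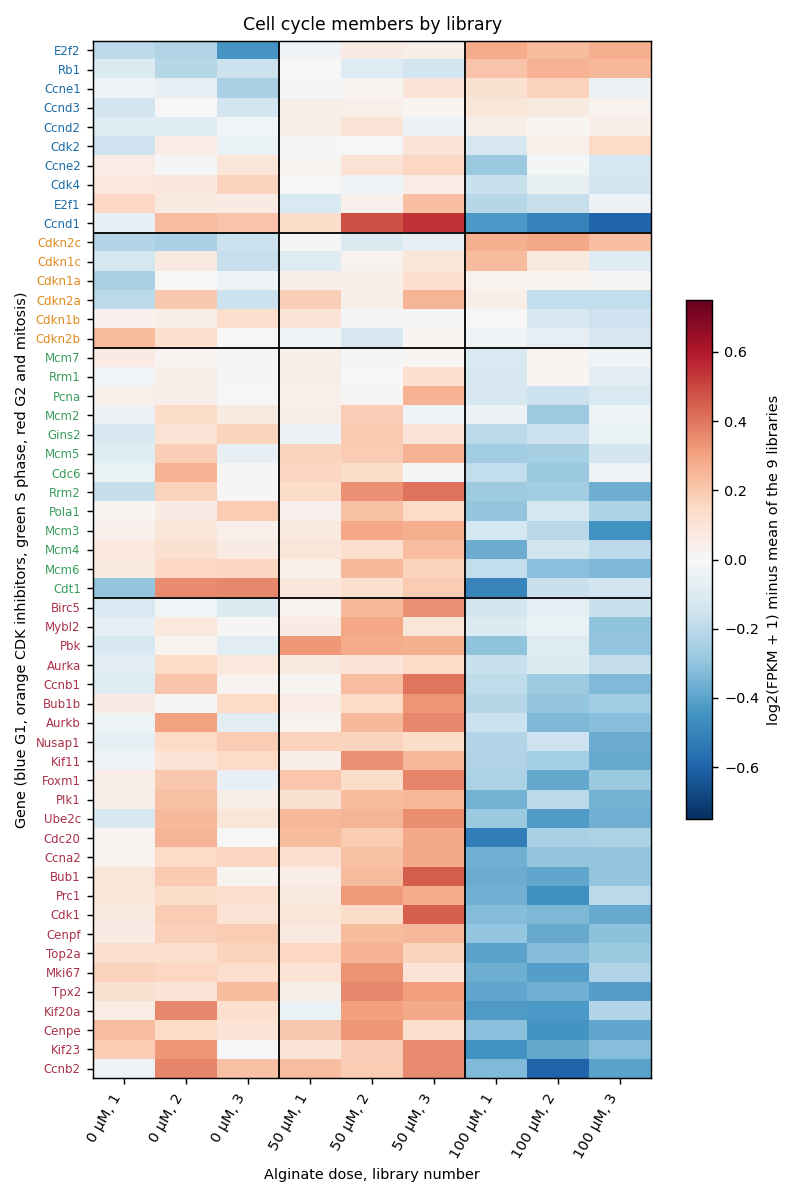
Level of each tested member (rows, coloured by class) in each of the 9 libraries (columns, by alginate dose and library number), as log2(FPKM + 1) minus the gene's mean over the 9 libraries. In G2 and mitosis the 100 µM columns are blue and the 50 µM columns mostly the reddest, and Ccnd1 in G1 shows the same colours; Rb1, E2f2 and Cdkn2c are red at 100 µM.

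At 50 µM the estimates of 47 of the 54 members lay above 0 µM, as did those of 6818 of all 12635 genes tested. No member passed the test. None of the 54 passed at 50 µM against 0 µM in either direction, in a comparison that called 0.791% of all tested genes, 0.356% higher and 0.435% lower. Without adjustment 12 of the 54 members had p under 0.05 in limma, beside 1814 of all 12635 genes tested. Of the 12, Cdk4 and Cdkn2b were lower and the rest higher, and 3 were in G2 and mitosis. A voom fit on the rebuilt reads called Rrm2 and Pbk higher. Pbk came closest in limma, with 9.32, 9.0 and 8.92 FPKM at 50 µM, against 6.59, 7.38 and 6.79 FPKM at 0 µM. The groups did not overlap, and the difference was 0.35 (SE 0.07, adjusted p = 0.0542). The libraries of 8 tested members lay wholly above 0 µM at 50 µM (all genes, 12.1%) and those of 1, Cdk4, wholly below (all genes, 8.58%). The members' median log2 fold change was 0.09, against 0.01 for all tested genes.

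Set against 50 µM, the 100 µM libraries showed a wider fall, in a comparison that shares its 100 µM libraries with the one above. Here 32 members fell and 2 rose, beside 12% of all tested genes lower, 13.2% higher and 25.1% in either direction. All 25 genes of G2 and mitosis had every 100 µM library below every 50 µM library (all genes, 19.5%), and 24 of the 25 fell, with Mybl2 the exception (limma adjusted p = 0.0824). The median was -0.52 for genes of G2 and mitosis and -0.35 for S phase genes. Pcna fell by 0.24 (limma adjusted p = 0.0244), beside the 6 S phase genes that fell against 0 µM, but missed the threshold under 5 of the 18 alternatives, among them leaving out any 1 library of 100 µM (adjusted p up to 0.076, without library 2). Aurkb missed it under 5 alternatives as well, among them leaving out library 2 or 3 of 50 µM or of 100 µM (adjusted p up to 0.0606). Aurka missed it without library 2 or 3 of 50 µM or library 3 of 100 µM, Birc5 without library 2 of 50 µM or library 3 of 100 µM, and Pola1 without library 2 of 50 µM, with adjusted p up to 0.0604, 0.0517 and 0.0555. Ccnd1 fell by 0.90 (limma, SE 0.11, adjusted p = 0.000716), the largest difference of any member in these comparisons. Rb1 and Cdkn2c rose by 0.32 and 0.31 (limma adjusted p = 0.00215 and 0.00114), and E2f2, at 0.24, missed the threshold (adjusted p = 0.0659).

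The order of the dose means was much alike across the mitotic class. By mean FPKM, all 25 genes of G2 and mitosis and 11 of 13 S phase genes were highest at 50 µM and lowest at 100 µM, as were 39 of the 54 members and 16.4% of all tested genes. On the log2(FPKM + 1) scale of the fit, 24 of the 25 mitotic genes lay higher at 50 µM than at 0 µM; in Kif20a, which averaged 9.84 FPKM at 50 µM, against 9.83 FPKM at 0 µM, the fitted difference was -0.0022. A moderated F test over the 3 doses (limma) passed for 36 members, 24 of them in G2 and mitosis, against 30.5% of all tested genes. The 50 µM mean lay above the midpoint of 0 and 100 µM in 9 members and below it in none (limma adjusted p under 0.05), beside 0.989% and 0.499% of all tested genes, or 1.49% in either direction. These were Ccnd1, Rrm2, Ccna2, Cenpe, Pbk, Plk1, Top2a, Tpx2 and Ube2c, with Ccnd1 the furthest above, by 0.58 (SE 0.10, adjusted p = 0.0368). This count rests on few libraries: it was 0 on leaving out library 1 or 3 of 0 µM, library 2 or 3 of 50 µM or library 3 of 100 µM, 1 without library 2 of 100 µM, 4 without library 2 of 0 µM and 5 without library 1 of 100 µM. It was also 0 with no filter and 26 in the voom fit.

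Over the 9 libraries, which include the dose effect, genes of S phase and of G2 and mitosis correlated within their class more than G1 genes did. Across the 9 libraries the median Pearson correlation between pairs of G2 and mitosis genes was 0.89 (300 pairs), against 0.71 between pairs of S phase genes (78 pairs) and 0.09 between pairs of G1 genes (45 pairs). After the mean of each dose was taken out, these medians were 0.35, 0.22 and -0.01. Pairs of CDK inhibitors (15 pairs) had a median of 0.02 before that step and 0.19 after it, near the S phase value. Correlations over all tested genes were not computed. The points share libraries, depth and scaling, so the values are descriptions. Within 0 µM, 21 of the 25 mitotic genes were above their dose mean in library 2 and 3 of 25 in library 1, and within 50 µM 19 of 25 were above it in library 3 and 2 of 25 in library 1. Ccnd1 was the G1 gene most like the mitotic class, with a correlation of 0.98 with the mean of the 25 mitotic genes over 9 libraries, and Rb1 and Cdkn2c ran opposite to it, at -0.92 and -0.84.

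Further genes of the same processes, taken from lists of textbook members, gave a narrower fall outside mitosis. Of 59 other mitosis genes tested, 31 fell and 1, Cdc25a, rose at 100 µM against 0 µM (median -0.29). The smallest p-values belonged to Nek2, Smc2, Racgap1 and Ckap2, which fell by 0.50, 0.42, 0.39 and 0.67 (limma adjusted p from 0.000416 to 0.000828). The count that fell was 20 without library 2 of 0 µM. Of 47 other replication genes, 10 fell and 2, Orc3 and Orc6, rose (median -0.12), beside the background of 15.6% lower and 18.3% higher. The 10 became 2 to 6 without library 2 or 3 of 0 µM or any 1 of the 100 µM libraries. Orc1, a subunit of the origin recognition complex, was lower, at 0.852 ± 0.0893 FPKM at 100 µM and 1.38 ± 0.0116 FPKM at 0 µM (log2 fold change -0.36, limma adjusted p = 0.0189). Its 100 µM libraries, at 0.896, 0.910 and 0.749 FPKM, lay under the filter of 1 FPKM. Orc1 was tested only through its higher 0 and 50 µM libraries, and its levels are near the floor. Of 32 other G1, E2F and p53 pathway genes, 7 fell and 3 rose (median -0.04). They included Mdm2 and Trp53, down by 0.23 and 0.52 (limma adjusted p = 0.00326 and 0.00548), and Cdc34, up by 0.48 (adjusted p = 0.000427). The count of 7 was 3 or 4 on leaving out any 1 library of 0 or 100 µM, and 11 with TPM. In all 3 lists, none passed at 50 µM against 0 µM in limma.

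Summed over its 25 genes, the G2 and mitosis class stood at 138.7 to 141.3 FPKM at 100 µM, against 184.5 to 208.3 FPKM at 0 µM, or 71.6% of the 0 µM mean. At 50 µM the sum was 198.7 to 224.8 FPKM, with library 1 inside the 0 µM range. The S phase sum stood at 109% of its 0 µM mean at 50 µM and 85.0% at 100 µM. At 100 µM the G1 sum was 98.7% of its 0 µM mean and the CDK inhibitor sum 111%. Abundant genes lead these sums: Ccnd2 and Cdk4 in G1, Cdkn1a among the CDK inhibitors, and Rrm2, Pcna and Rrm1 in S phase. The sums therefore hide genes that moved in opposite directions, such as Ccnd1 and E2f2. The wider lists fell less, to 84.6% for the other mitosis genes and 97.3% for the other replication genes.

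Markers of several cell types moved at 100 µM against 0 µM, beside a background of 15.6% of all tested genes lower and 18.3% higher. All 20 mature adipocyte markers rose at 100 µM against 0 µM, and their sum was 16531 to 17357 FPKM at 100 µM and 10422 to 11076 FPKM at 0 µM. Of 14 stromal progenitor markers tested 9 fell, with sums of 700.7 to 805.8 and 1123 to 1183 FPKM at 100 and 0 µM. Macrophage markers fell in 11 of 13 tested, with sums of 223.8 to 235.6 FPKM at 100 µM and 281.4 to 312.3 FPKM at 0 µM, though Itgam was near 0 throughout (at most 0.0133 FPKM). Endothelial markers fell in 11 of 14, with sums of 188.1 to 190.6 and 222.2 to 245.1 FPKM at 100 and 0 µM. Of 9 mural cell markers 2 fell and 2 rose, near the background. The mural sum, which Acta2 and Tagln lead, was 212.9 to 231.8 FPKM at 100 µM and 302.7 to 344.7 FPKM at 0 µM. The part of these cell types in the fall of the cell cycle genes was not tested.

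**Figure D5:**
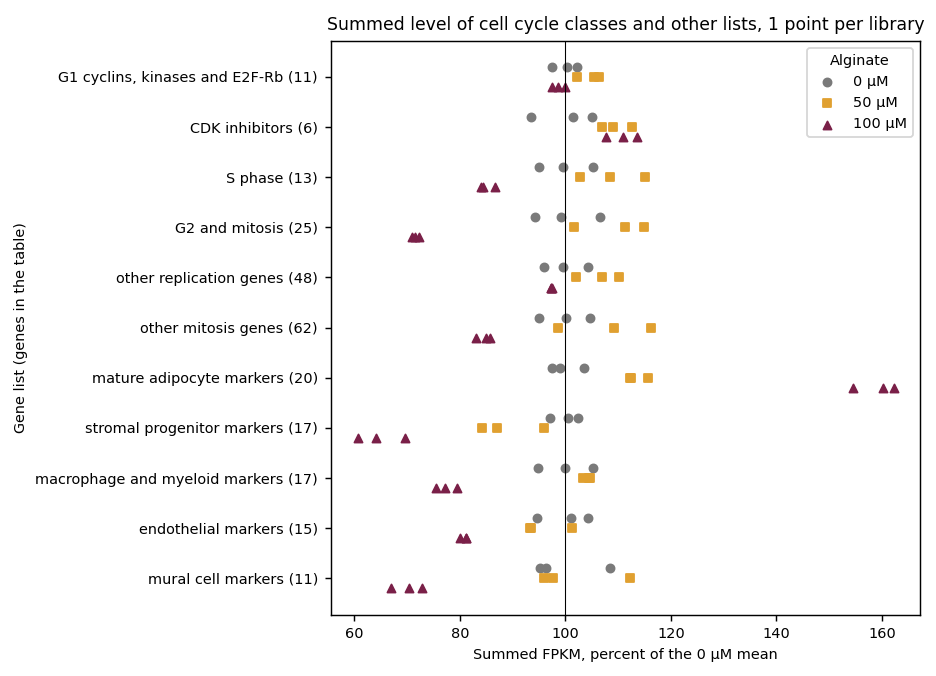
Summed FPKM of each gene list in each library as a percentage of its mean at 0 µM (horizontal axis), with 1 point per library and the number of genes in parentheses. At 100 µM the G2 and mitosis points sit near 71.6%, among stromal progenitor (64.8%), mural (70.1%) and macrophage (77.4%) markers and apart from mature adipocyte markers (159%). At 50 µM these lists differ, with means of 109% for G2 and mitosis, 89.1% for stromal progenitor, 102% for mural and 104% for macrophage markers. Other mitosis genes sit near 84.6% and other replication genes near 97.3%.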

How the data were processed

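RNA of 9 libraries was sequenced, and the authors deposited 1 table of FPKM values per gene, per the file headers. The aligner, counter and strand setting were not given in the sources used here. GRCm38 and mm10 are the builds in the submitters' processing notes, whereas the gene identifiers belong to the C57BL/6NJ strain assembly, so no gene coordinate from the table is printed. FPKM multiplied by gene length came out as whole reads for every value within 0.01, which gave the depth of each library. The library total used in the deposited values was 1.01 to 1.03 times the reads at 0 and 50 µM and 0.969 to 0.976 times at 100 µM.

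Here, limma 3.58.1 in R 4.3.3 was fitted to log2(FPKM + 1) with 1 mean per dose over 9 libraries, with a trend in the prior variance, two-sided, on genes that reached 1 FPKM in 3 or more libraries. Benjamini-Hochberg adjustment ran over all 12635 genes tested, and a gene was called under 0.05. The fit was tried on simulated data with few changed genes and the same spread setting for every gene, so that trial does not measure its error here. Comparisons share libraries. Members, lists and motifs were chosen with earlier results of these data known. Named with all library values were, per class, the 4 members with the smallest p at 100 µM against 0 µM, and Mki67, Top2a, Pcna, Ccnd1, Cdkn1a and Cdkn1b; of other lists, up to 4 genes, and further ones where a small count is spelled out. Alternatives were other pseudocounts, filters, scalings and fits and leaving out each library. The labels give no pairing of libraries across doses, so none was used in the fit.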

Additional observations from a re-analysis of the deposited data

How the results depend on the processing

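No member changed sign among those called, under any of the 18 alternatives. Leaving out 1 library gave 3 to 4 members higher and 24 to 30 lower at 100 µM against 0 µM, 2 to 3 higher and 28 to 33 lower at 100 µM against 50 µM, and 0 to 1 higher at 50 µM against 0 µM (Pbk, without library 2 of 100 µM). The count above the midpoint, 9, was 0 to 10 on leaving out 1 library, 0 with no filter, 2 with a filter of 0.1 FPKM, 20 with TPM, 17 with the authors' factor removed and 26 with voom. Voom, added after seeing the data, also gave 2 members higher at 50 µM against 0 µM. With the library number as a replicate block, 3 members were higher and 28 lower at 100 µM against 0 µM, and 0 stood above the midpoint. Deviations from dose means over all tested genes correlated no more for the same number (-0.09 to 0.04) than for different ones (-0.08 to 0.10). This shows no pairing by number but cannot settle that there was none. With TPM 3 members were higher and 37 lower at 100 µM against 0 µM, and the all-gene median moved to -0.06. With no filter 4 members were higher and 23 lower in that comparison, the lowest count of falls. A filter of 0.1 FPKM gave 4 higher and 25 lower. Genes called among all at 50 µM against 0 µM numbered 169 higher and 179 lower with voom, and 0 under the block. Fits with edgeR or TMM scaling were not run. The cause of these shifts was not tested. Depth limits Cdk6 most, at 8 to 26 reads, and then Mybl2, at 54 to 123. Cdc6 (76 to 159 reads), Gins2 (84 to 146), Cdt1 (92 to 176) and E2f2 (105 to 247) were also low.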
